A study of Arabidopsis thaliana with 28 samples.

Results

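The nuclear genes for the light-harvesting antenna and for the subunits of both photosystems were followed through RNA sequencing of whole Arabidopsis thaliana seedlings. The set was chosen by name and role: 39 loci, all present among the 23686 rows of the deposited table, of which 4 encode the antenna proteins of photosystem I (LHCA), 14 those of photosystem II (LHCB), 12 subunits of photosystem I (PSA) and 9 subunits of photosystem II (PSB). All 39 passed the filter on low values, which asked for a normalised read count of at least 10 in at least 2 samples and left 21023 loci. The 28 samples fell into 10 groups. The wild-type accession Col-0 was given a mock solution (n = 2), 10 nM abscisic acid (ABA; n = 2) or 50 nM ABA (n = 3). The mutant aba2-1, which carries a lesion in the ABA biosynthesis gene ABA2, was given mock, 10 nM ABA or 50 nM ABA (n = 3 each). A further 4 groups, given mock (n = 3 each), carry the labels PYR1 CA, PYL4 CA, PYL6 CA and PYL5 CA, which name ABA receptors; CA is the usual short form for a constitutively active receptor. Seedlings spent 7 days on plates and 3 h in liquid medium. The age in the labels is 10 days past germination, which was not reconciled with this. Every sample carries the line label T3, and neither the background of the CA lines nor the promoter of their transgenes is given in the sources used here.

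Light is gathered by chlorophyll-binding antenna proteins and passed to the reaction centres of photosystem II, which oxidises water, and photosystem I, which reduces ferredoxin. LHCB1, LHCB2 and LHCB3 form the major trimeric antenna of photosystem II, LHCB4, LHCB5 and LHCB6 are the minor antenna that link it to the core, and LHCA1 to LHCA4 form the belt around photosystem I. The reaction-centre core is encoded in the plastid, while these antenna and outer subunits are encoded in the nucleus, and their transcripts are known to respond to light, the circadian clock, plastid signals and ABA. In whole seedlings sequenced in bulk, fewer green cells and less of a transcript per green cell cannot be told apart.

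Known ABA-induced genes were high in the ABA libraries. RAB18, a dehydrin gene used as a marker of ABA, held 16.4 and 32.1 normalised reads in Col-0 mock, 249.3 and 299.2 at 10 nM and 531.0, 298.5 and 399.1 at 50 nM. In aba2-1 it held 13.5, 18.1 and 17.0 in mock, 318.0, 194.3 and 225.1 at 10 nM and 986.9, 1505.0 and 872.2 at 50 nM. RD29B, another ABA marker, held 8.5 to 10.6 in Col-0 mock and 88.3 to 105.4 at 50 nM, against 4.5 to 9.3 in aba2-1 mock and 233.4 to 286.0 at 50 nM. Both markers were above mock in every ABA library. In the CA lines RAB18 ranged from 28.2 to 103.5 and RD29B from 10.7 to 93.1, overlapping Col-0 mock for RAB18 in PYL5 CA.

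Depth ran from 11.99 to 30.94 M reads per library, with a median of 19.36 M. The members took 2.73% to 10.6% of the reads outside ribosomal RNA. Replicates of 2 groups lay far apart: the members' median replicate SD (log2) reached 0.654 for aba2-1 given 50 nM ABA and 0.620 for PYL5 CA, while the remaining 8 groups had 0.0279 to 0.164. For replicate 3 of aba2-1 at 10 nM, annotated nuclear ribosomal RNA took 36.6% of the reads and plastid rows 40.1%. The rows PYL4-CA, PYL5-CA and PYL6-CA of the table were highest in the line of that name, but PYR1-CA held 323.6 to 555.0 in the line labelled PYR1 CA and up to 2105.0 in other libraries, so that line is called by its label. The row MCCA-NOS held 8531.0 to 26804.0 in the 12 CA libraries and 0 to 139.9 in the 16 others. Markers of root, epidermis and phloem were detected in every library, and the 5 seed genes (CRA1, CRC, SESA1, OLEO1 and OLEO2) were each at 0 in 3 to 19 libraries.

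Per kilobase of transcript, 4 of the 5 LHCB1 genes stood at the top. LHCB1.3 (AT1G29930) averaged 227.6 kreads per kb over the 28 libraries, where 1 kread is 1000 normalised reads; LHCB1.5 held 109.9, LHCB1.1 held 88.9 and LHCB1.2 held 61.1. PSAG, a photosystem I subunit that binds the antenna, followed with 47.8 kreads per kb, and PSBO1, which stabilises the oxygen-evolving cluster of photosystem II, with 44.1. Of the LHCA genes LHCA4 was highest with 39.2 kreads per kb. The other genes of the major antenna were lower, with 28.03 kreads per kb for LHCB3, 19.4 for LHCB2.1, 18.9 for LHCB1.4 and 12.8 for LHCB2.2. The lowest was LHCB4.3 (AT2G40100), a rarer form of the minor antenna protein CP29, with 0.167 kreads per kb and between 106.1 and 370.5 normalised reads per library. The next lowest, LHCB2.3, averaged 2.28 kreads per kb and held at least 1.65 kreads in every library.

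Some of these genes are close copies, so the split of reads between them is uncertain. Of the 31-base words of the LHCB1.4 coding sequence, 0.908% to 5.32% also occurred in LHCB1.1, LHCB1.2 or LHCB1.3, whereas 36.6% of those of LHCB1.3 occurred in LHCB1.1 and 34.4% of those of LHCB1.5 in LHCB1.4. Of the LHCB2.2 words 43.4% occurred in LHCB2.1, and of the LHCB2.3 words 0.923% occurred in either. The sums over LHCB1 and over LHCB2 are therefore given beside single genes. In the annotation 15 of the 39 genes overlap a gene on the opposite strand. The kit was a stranded one, and whether strand was used in counting is not given in the sources used here.

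The heat map of all members shows their order over the libraries. The lowest value of 27 of the 39 members was in aba2-1 50 nM ABA replicate 2, and the highest value of 33 was in PYL5 CA replicate 2. The same count was not made over all loci, so whether this is particular to the members is not known. The LHCB1 sum ranged from 172.4 to 925.7 kreads over the 28 libraries. LHCB1.3, the highest LHCB gene, held 304.6 and 322.2 kreads in Col-0 mock and 246.4, 279.7 and 231.7 at 50 nM ABA, against 275.1, 313.6 and 301.6 in aba2-1 mock and 218.7, 91.3 and 346.5 at 50 nM. LHCA4 held 52.0 and 56.2 kreads in Col-0 mock and 41.7, 44.2 and 42.2 at 50 nM, and PSBO1 69.9 and 72.6 against 57.1, 59.3 and 58.8. Both were below mock in all 3 Col-0 libraries.

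**Figure D1:**
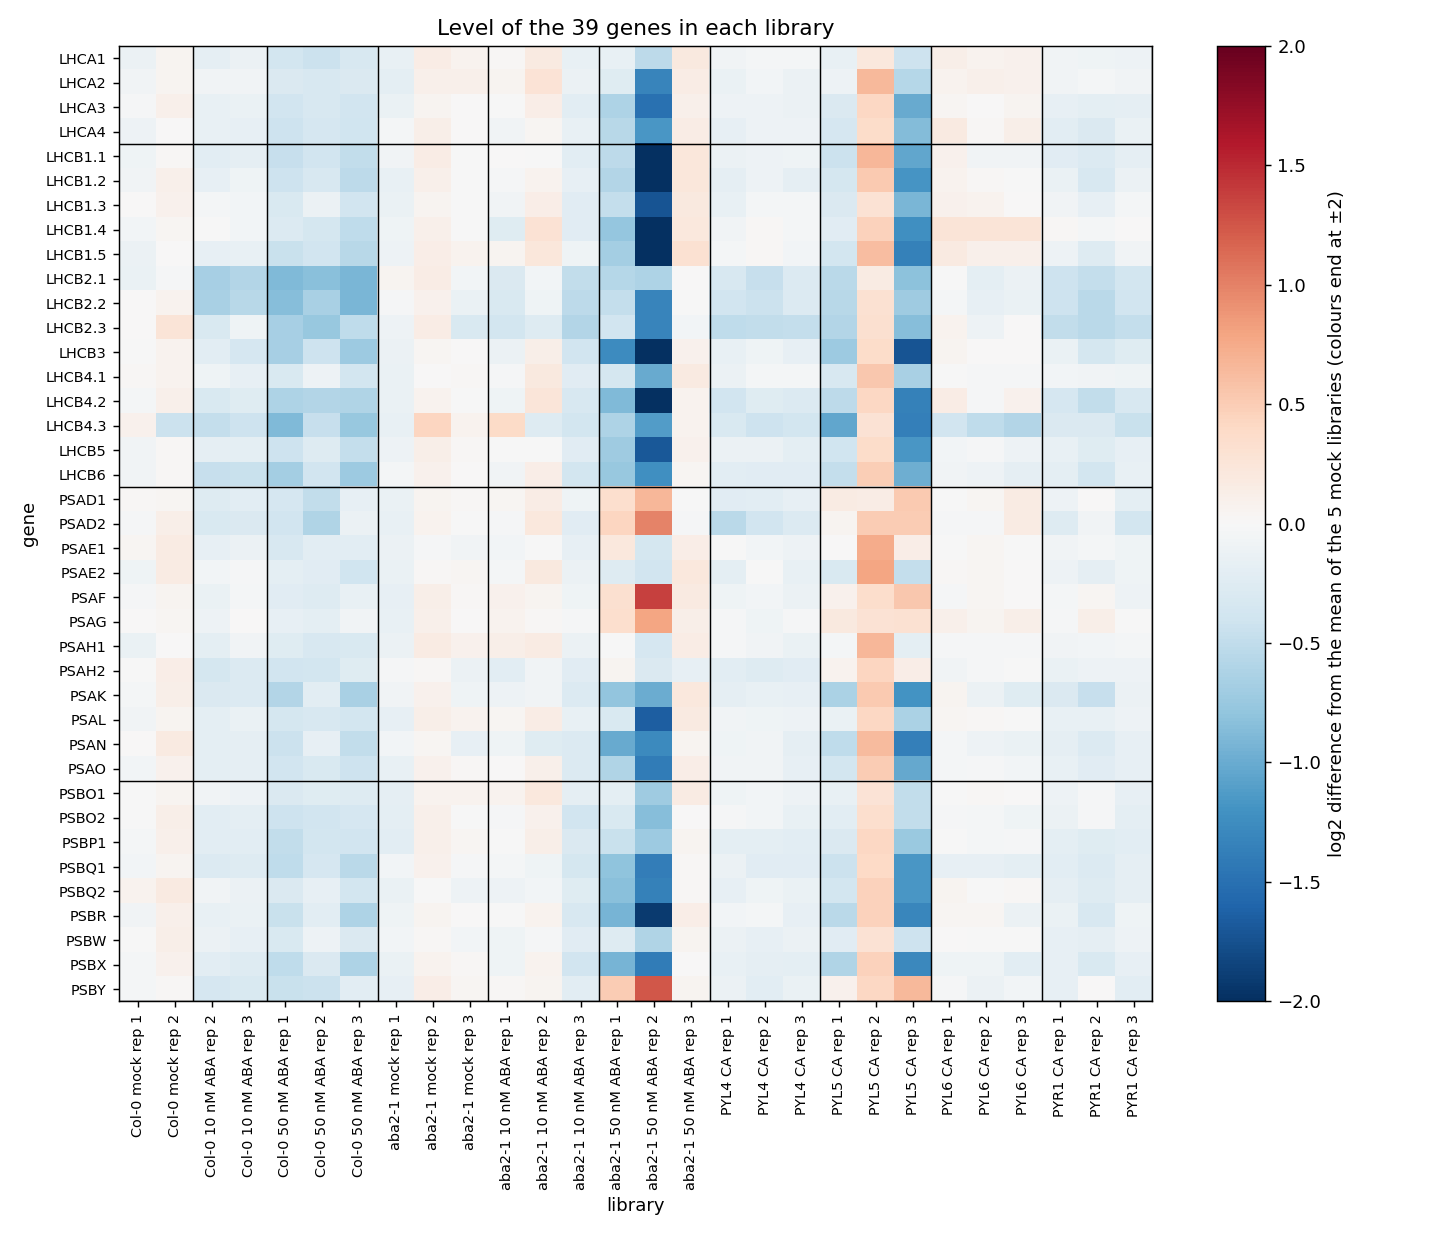
Heat map of the log2 difference of each of the 39 genes (rows, grouped by family) in each of the 28 libraries (columns, grouped by condition) from the mean of the 5 mock libraries; the pseudocount here is 1 read. All 39 genes are below both Col-0 mock libraries in the 3 Col-0 50 nM ABA libraries, while aba2-1 50 nM ABA replicate 2 and PYL5 CA replicate 3 pair low LHCB rows with high PSAD1, PSAD2, PSAF, PSAG and PSBY.

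Without added ABA no member was called between the mutant and the wild type. In aba2-1 mock against Col-0 mock, 0 of 39 members passed limma's test at an adjusted p under 0.05, against 0.59% of all loci (limma, called in either direction). Unadjusted limma p was under 0.05 for 0 members and for 1668 of 21023 loci. edgeR and DESeq2 also called 0 members. The median log2 difference of the members was -0.04, against -0.00369 over all loci tested. None lay above both Col-0 mock libraries in all aba2-1 libraries (16.2% of all loci), and PSAE1 and PSBQ2 lay below (15.6%). The members with the smallest p were PSAE1, PSAH2 and LHCB4.3. PSAE1 (AT4G28750), a stromal subunit of photosystem I near the ferredoxin site, held 18.8 and 20.6 kreads in Col-0 mock and 16.9, 18.1 and 17.3 in aba2-1 mock, all below Col-0 mock, at a log2 difference of -0.17 (SE 0.164, adjusted p 0.98, limma). Of the 39, LHCB2.3 had the lowest log2 difference (-0.22) and LHCB4.3 the highest (0.29). The limma p-value here rests on the spread between replicates over all 28 libraries, not the mock libraries alone. Whether that spread is technical was not tested. The members' median replicate SD (log2) was 0.0867 for Col-0 mock and 0.106 for aba2-1 mock, while the highest of any group was 0.654.

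In Col-0, the members were lower after ABA, with a lower median difference from mock at 50 nM than at 10 nM. The 2 doses were not tested against each other, and some members overlapped between them. PSAD1 held 27.25 and 27.96 kreads at 10 nM and 25.77, 23.1 and 28.99 at 50 nM, and PSBY 14.21 and 14.6 against 13.12, 13.3 and 15.46. At 10 nM, 33 of the 39 members lay below mock with no overlap between the libraries, against 24% of all loci; none lay above, against 23.6%. At 50 nM, all 39 lay below mock in each of the 3 libraries, against 16.8% of all loci, and none lay above, against 17.8%. The median log2 difference of the members was -0.20 at 10 nM and -0.39 at 50 nM, with medians over all loci of -0.000831 and -0.00779. These 39 genes are not independent observations, since they share libraries. Other levels differed between these libraries too, and their part in the result was not tested. The 3 phloem markers summed to 2798 to 2952 normalised reads in mock, 2775 to 2943 at 10 nM and 2197 to 2366 at 50 nM. Ribosomal RNA took 1.023% and 1.09% of reads in mock and 1.58% to 4.60% in the 5 ABA libraries, and plastid rows 2.87% and 2.94% against 3.12% to 3.945%.

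The separation did not carry over to single-gene calls. At an adjusted p under 0.05, limma called 0 of 39 members at 10 nM, against 0.0285% of all loci, and 0 at 50 nM, against 1.01%. Unadjusted p was under 0.05 for 3 members at 10 nM and 7 at 50 nM, and for 818 and 1984 of 21023 loci. At 50 nM edgeR called 0, with 7 members and 2063 of 21023 loci at an unadjusted p under 0.05. DESeq2 called LHCB2.1 and PSAH2 there (2.15% of all loci), while at 10 nM both programs called 0. In limma fits the spread came from all 28 libraries; with the groups of the comparison alone 8 members were called lower at 10 nM (2.28% of all loci) and 14 at 50 nM (4.56%). With weights per library 3 and 30 were called lower, with 1.76% and 10.8% of all loci.

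The LHCB2 genes had the lowest log2 differences in Col-0 at 50 nM. They encode a form of the trimeric antenna whose phosphorylation is tied to state transitions. LHCB2.1 (AT2G05100) held 24.6 and 26.7 kreads in mock, 17.1 and 18.04 at 10 nM and 14.7, 15.1 and 14.4 at 50 nM, so the groups did not overlap at any step. Its log2 difference was -0.545 (SE 0.224, adjusted p 1.00, limma) at 10 nM and -0.80 (SE 0.204, adjusted p 0.059, limma) at 50 nM. LHCB2.2 (AT2G05070) held 18.2 and 19.0 kreads in mock, 11.6 and 12.4 at 10 nM and 10.12, 11.6 and 9.65 at 50 nM, with log2 differences of -0.63 (SE 0.285) and -0.84 (SE 0.260, adjusted p 0.148, limma). LHCB2.3 (AT3G27690) held 4.12 and 4.91 kreads in mock, 3.34 and 3.86 at 10 nM and 2.59, 2.44 and 2.88 at 50 nM. Here too each ABA library at 50 nM was below both mock libraries, at a log2 difference of -0.77 (SE 0.269, adjusted p 0.221, limma).

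As a share of all LHCB reads, LHCB2 was 5.40% and 5.43% in Col-0 mock, 3.99% and 4.26% at 10 nM and 4.095%, 3.97% and 4.25% at 50 nM. The LHCB1 share moved the other way, from 74.4% and 74.6% in mock to between 76.6% and 77.3% in the 5 ABA libraries. Neither share overlapped between mock and ABA. The LHCB2 sum was 48.8 ± 2.64 kreads in mock (SD, n = 2), 33.2 ± 1.61 at 10 nM (SD, n = 2) and 27.8 ± 1.21 at 50 nM (SD, n = 3).

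PSAH2 (AT1G52230), the other member with a low p at both doses, encodes a photosystem I subunit at the docking side of the mobile antenna. It held 9.59 and 10.6 kreads in mock, 7.61 and 7.96 at 10 nM and 7.43, 7.46 and 8.19 at 50 nM, at log2 differences of -0.37 (SE 0.128, adjusted p 0.799, limma) and -0.39 (SE 0.117, adjusted p 0.122, limma). The 10 and 50 nM libraries overlapped. The member nearest to mock at 50 nM by log2 difference was PSAG, with 35.4 and 36.2 kreads in mock and 31.5, 30.9 and 33.7 at 50 nM (log2 difference -0.16).

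The promoters of the LHCB2 genes are shown because these genes had the lowest values of the set in Col-0 at 50 nM, relative to mock. Each window is the 250 bases before the annotated gene start in the RefSeq annotation of TAIR10.1. Capitals mark ACGTG (the core of the ABA-response element) and GATAAG (the I-box of light-regulated genes), both strands. LHCB2.1 lies at chr2:1824481-1824730, minus strand, LHCB2.2 at chr2:1800473-1800722, minus strand and LHCB2.3 at chr3:10255656-10255905, plus strand.
LHCB2.1: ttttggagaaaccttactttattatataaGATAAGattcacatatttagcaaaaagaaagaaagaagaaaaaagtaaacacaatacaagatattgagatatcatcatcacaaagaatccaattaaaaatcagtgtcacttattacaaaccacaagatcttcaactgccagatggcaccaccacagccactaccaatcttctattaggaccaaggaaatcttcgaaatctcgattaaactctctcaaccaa
LHCB2.2: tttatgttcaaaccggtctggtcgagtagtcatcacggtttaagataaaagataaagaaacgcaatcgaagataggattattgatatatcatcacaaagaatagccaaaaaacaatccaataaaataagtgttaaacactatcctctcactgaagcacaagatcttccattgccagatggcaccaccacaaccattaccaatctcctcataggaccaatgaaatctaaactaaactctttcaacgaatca
LHCB2.3: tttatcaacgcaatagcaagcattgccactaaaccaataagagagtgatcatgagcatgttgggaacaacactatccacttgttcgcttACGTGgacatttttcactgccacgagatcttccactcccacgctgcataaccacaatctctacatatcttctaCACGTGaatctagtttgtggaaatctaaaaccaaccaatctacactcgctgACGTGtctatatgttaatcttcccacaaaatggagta

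In these windows ACGTG occurred at 4 places in LHCB2.3, its 1 CACGTG being counted once on each strand, and at 0 in LHCB2.1 and LHCB2.2. GATAAG occurred at 1 place in LHCB2.1. Motifs were counted on both strands. Windows with ACGTG made up 38.5% of the members (15 of 39) against 22.9% of the 27443 protein-coding genes read. CACGTG, which contains ACGTG, was in 20.5% of the members against 6.49% of all, and GATAAG in 23.1% against 12.3%. CCAATC was in 7 of 14 LHCB and 3 of 4 LHCA windows and in 0 of 12 PSA windows, against 10.2% of all. AAAATATCT was in 0 members and 2.36% of all. These are descriptions of letters in the window.

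**Figure D2:**
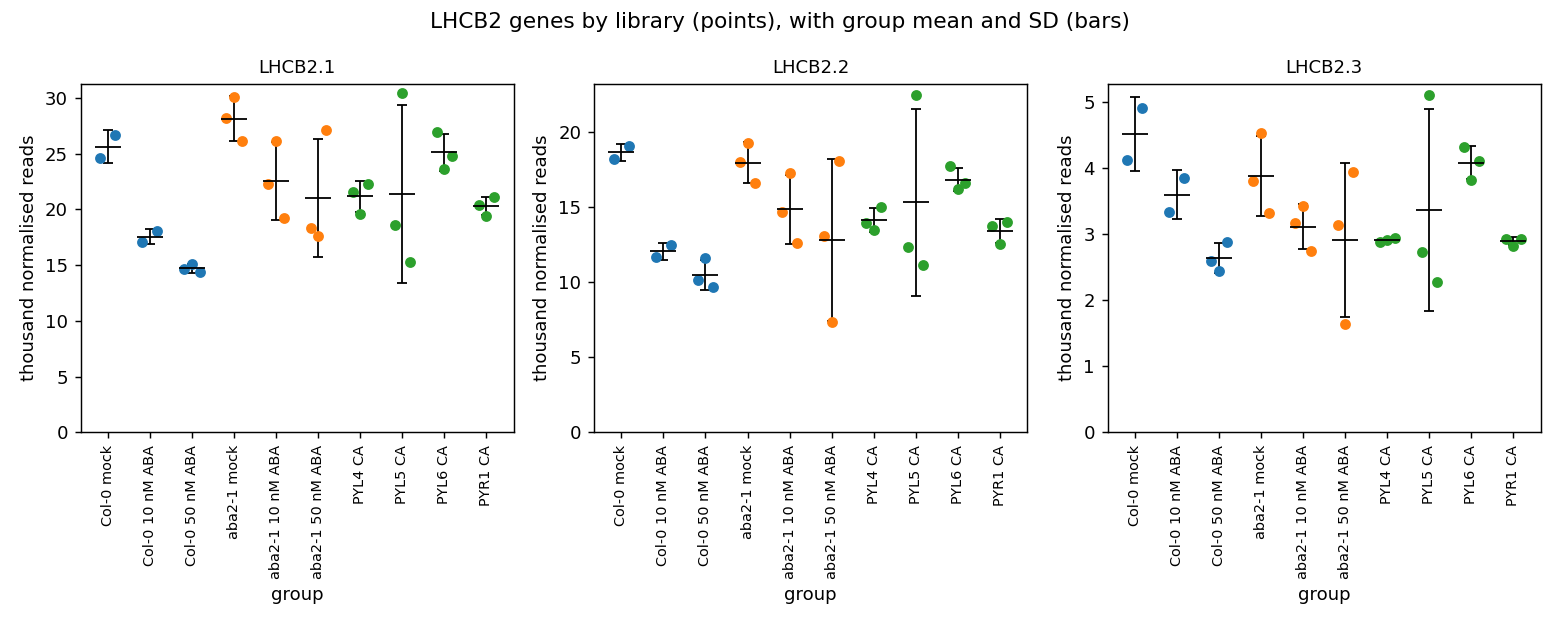
Normalised reads (kreads, y axis from 0) of LHCB2.1, LHCB2.2 and LHCB2.3 in the 10 groups; points are libraries and bars are the mean and SD. In Col-0 the LHCB2.1 points step down from 24.6 and 26.7 in mock to 14.4 to 15.1 at 50 nM. PYL5 CA has 1 library far above the others for each gene. In aba2-1 50 nM ABA this holds for LHCB2.1 (18.3, 17.6 and 27.1). There LHCB2.2 held 13.06, 7.31 and 18.07 and LHCB2.3 held 3.15, 1.65 and 3.94, lowest in replicate 2.

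Beyond the members, the calls in lists of related genes in Col-0 at 50 nM stand against 1.01% of all loci called in either direction. Of 13 Calvin cycle and Rubisco genes RBCS1B, a small subunit of Rubisco, fell (log2 difference -1.36, adjusted p 0.0253, limma), and of 11 electron transfer and ATP synthase genes ATPD fell (-0.49, adjusted p 0.0322, limma). Of 13 regulators GLK2, a transcription factor that activates antenna genes, fell, from 764.2 and 850.6 normalised reads to 541.0, 504.0 and 547.8 (-0.60, adjusted p 0.0087, limma). None of 12 other nuclear photosystem genes, 15 chlorophyll synthesis genes or 6 stress-induced LHC-like genes passed; their medians were -0.32, -0.27 and -0.27. The plastid-encoded photosystem and Rubisco genes had a median of 0.33 with none called. Of 10 clock genes 3 rose (PRR5, PRR9 and GI) and 1 fell (LHY).

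In aba2-1, 10 nM ABA left no member separated from mock. All 39 overlapped, where 7.28% of all loci lay above and 7.05% below. limma called 0, against 0.975% of all loci. Its unadjusted p was under 0.05 for 0 members and for 1651 of 21023 loci, and edgeR and DESeq2 called 0 members. The smallest p values were those of LHCB2.1, LHCB2.3 and PSAH2. LHCB2.1 held 28.2, 30.1 and 26.1 kreads in mock and 22.3, 26.2 and 19.2 at 10 nM, at a log2 difference of -0.33 (SE 0.183, adjusted p 0.752, limma). LHCB2 was 4.63%, 4.83% and 4.52% of LHCB reads at 10 nM against 6.002%, 5.65% and 5.115% in mock, without overlap. In the library with high ribosomal and plastid reads, replicate 3, 30 of the 39 members were below all 3 mock libraries, against 31.8% of all loci.

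At 50 nM ABA in aba2-1 the members split in direction, and the replicates disagreed. limma called 4 of 39 members, against 24.8% of all loci: PSAG, PSAF and PSBY rose (12.7% of all loci) and LHCB3 fell (12.1%). Its unadjusted p was under 0.05 for 26 members and for 8397 of 21023 loci. edgeR called 4 (24.4% of all loci) and DESeq2 5 (26.7%), all higher; neither called LHCB3, whose adjusted p was 0.138 by edgeR and 0.142 by DESeq2. Medians by family were -0.51 for LHCA, -0.73 for LHCB, -0.10 for PSA and -0.35 for PSB, and the median of all members was -0.55, against 0.00338 over all loci. That median was -0.171 without replicate 2 and -0.873 without replicate 3. No member lay below mock in all 3 libraries, against 14.5% of all loci. PSAF and PSAG lay above in all 3, against 14.4%.

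PSAF (AT1G31330), the plastocyanin-docking subunit of photosystem I, held 42.0, 51.3 and 48.0 kreads in mock and 58.9, 122.0 and 53.3 at 50 nM, at a log2 difference of 0.63 (SE 0.193, adjusted p 0.0225, limma). PSAG (AT1G55670) held 31.8, 37.7 and 35.6 kreads in mock and 44.5, 61.1 and 38.2 at 50 nM (0.43, SE 0.127, adjusted p 0.0187, limma). PSBY (AT1G67740), a small photosystem II subunit, held 16.0, 19.7 and 18.5 kreads in mock and 25.4, 42.4 and 18.7 at 50 nM (0.60, SE 0.190, adjusted p 0.0267, limma). Replicate 2 was highest in all 3 genes, and in PSBY replicate 3 lay within the mock range.

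LHCB3 (AT5G54270), which forms trimers with LHCB1 and LHCB2, held 38.1, 42.5 and 41.4 kreads in mock and 17.2, 8.69 and 43.7 at 50 nM, at a log2 difference of -1.12 (SE 0.398, adjusted p 0.0438, limma). Replicate 3 was above every mock library, and replicates 1 and 2 were below. LHCB4.2 (AT3G08940), a minor antenna gene, held 21.6, 24.9 and 23.8 kreads in mock and 12.9, 4.11 and 24.9 at 50 nM (-1.09, SE 0.404, adjusted p 0.0511, limma). The LHCB1 sum was 457.9, 172.4 and 780.8 kreads, against 615.2, 713.2 and 672.5 in mock.

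By library, replicate 1 had 30 members below and 7 above all mock libraries, replicate 2 had 34 below and 5 above, and replicate 3 had 1 below and 24 above. The shares of all loci below and above were 36.2% and 36.3% in replicate 1, 41.5% and 42.6% in replicate 2 and 29.5% and 28.9% in replicate 3. The median member was -0.455, -1.23 and 0.121 (log2) from the mock mean. RAB18 was above mock in all 3.

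Within photosystem I the subunits parted in replicate 2. PSAD1 and PSAD2, which form the ferredoxin-docking site, were 0.68 and 1.03 above the mock mean on the log2 scale, with PSAF at 1.38 and PSAG at 0.81. PSAL, PSAO, PSAN and PSAK were at -1.66, -1.39, -1.21 and -0.96. The remaining 4 lay between, PSAE1 and PSAE2 of the stromal side at -0.28 and -0.36, and PSAH1 and PSAH2 at -0.38 and -0.24. In replicates 1 and 3 PSAE1 held 21.1 and 20.02 kreads, above the 16.9 to 18.1 of mock. PSAG was thus high and PSAE1 and PSAE2 were not in replicate 2, and the part of subunit position was not tested. The sum of PSA reads was 1.24 times that of LHCB reads there, against 0.272 to 0.277 in mock and 0.433 and 0.263 in replicates 1 and 3. PSAF over LHCB3 was 14.05 in replicate 2, 3.415 in replicate 1 and 1.22 in replicate 3, against 1.101 to 1.21 in mock.

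The 5 genes high in replicate 2 (PSAD1, PSAD2, PSAF, PSAG and PSBY), grouped after their values were seen, had transcripts of 780 to 1219 bases with GC of 41.3% to 44.0%; the other 34 members had 607 to 1508 bases and 40.3% to 51.4%. Of the 5 genes 4 have a single exon, as do 6 of the other 34, among them all 5 LHCB1 genes, which were low. Of the list genes, also picked after their values were seen, ATPG, a subunit of the plastid ATP synthase, held 16515.2, 33546.4 and 12545.6 normalised reads against 11014.0 to 12504.0 in mock (adjusted p 0.0209, limma). GUN4, an activator of chlorophyll synthesis, held 2518.1, 6604.1 and 2093.3 against 1813.9 to 1881.9 (adjusted p 0.018, limma). Both were highest in replicate 2.

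The promoters of the 4 called genes are shown for comparison, with the same capitals. PSAF lies at chr1:11216142-11216391, minus strand, PSAG at chr1:20803450-20803699, minus strand, PSBY at chr1:25395250-25395499, minus strand and LHCB3 at chr5:22037915-22038164, plus strand.
PSAF: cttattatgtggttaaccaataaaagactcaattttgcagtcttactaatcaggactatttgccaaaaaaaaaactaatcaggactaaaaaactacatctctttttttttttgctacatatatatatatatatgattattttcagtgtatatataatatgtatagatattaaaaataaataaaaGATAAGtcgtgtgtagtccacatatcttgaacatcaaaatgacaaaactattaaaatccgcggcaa
PSAG: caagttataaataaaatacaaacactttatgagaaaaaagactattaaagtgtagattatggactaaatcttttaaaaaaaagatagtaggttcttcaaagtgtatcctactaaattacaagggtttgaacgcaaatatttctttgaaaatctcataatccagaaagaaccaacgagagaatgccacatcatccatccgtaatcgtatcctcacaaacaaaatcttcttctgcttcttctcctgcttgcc
PSBY: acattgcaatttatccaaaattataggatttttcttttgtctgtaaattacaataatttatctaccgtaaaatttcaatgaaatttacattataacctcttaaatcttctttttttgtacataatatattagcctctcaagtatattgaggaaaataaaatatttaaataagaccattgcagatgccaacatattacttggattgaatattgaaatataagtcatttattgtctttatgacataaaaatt
LHCB3: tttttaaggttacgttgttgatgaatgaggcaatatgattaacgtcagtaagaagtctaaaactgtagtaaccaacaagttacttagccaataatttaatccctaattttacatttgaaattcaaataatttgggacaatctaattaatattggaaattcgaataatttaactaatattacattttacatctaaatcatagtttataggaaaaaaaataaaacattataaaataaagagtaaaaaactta

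ACGTG was in none of these 4 windows, and GATAAG was at 1 place in PSAF.

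**Figure D3:**
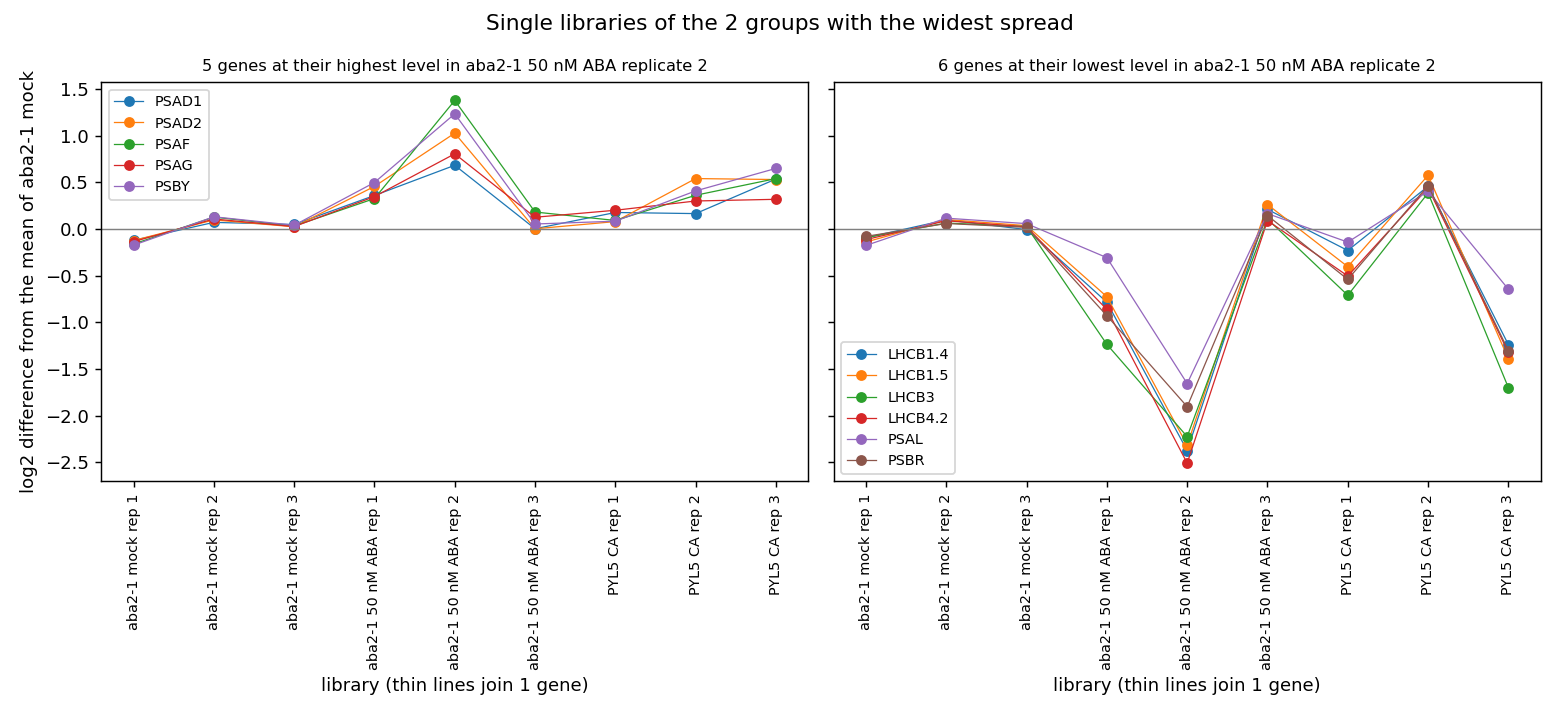
Log2 difference of 5 genes (left) and 6 genes (right) from the mean of aba2-1 mock, in the libraries of aba2-1 mock, aba2-1 50 nM ABA and PYL5 CA; genes were picked after their values were seen. PSAF is at 1.38 and LHCB4.2 at -2.51 in aba2-1 50 nM ABA replicate 2, and replicate 3 of that group lies between 0.00334 and 0.264 for all 11.

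Depth and marker levels moved with these libraries, and their part in the result was not tested. Replicate 2 had the fewest reads of the series, 11.99 M. The summed level of the 7 epidermis and guard cell markers was 14419, 23512 and 12706 in replicates 1, 2 and 3 (mock 10787 to 13073). The 3 phloem markers summed to 1871, 1284 and 2535 (mock 2222 to 2858), and the 12 root markers to 7403, 7571 and 6756 (mock 8862 to 10637). MCCA-NOS held 139.9, 34.1 and 5.3 in the same libraries. These sums follow their highest genes. Over the 28 libraries PDF1 ranged from 3149 to 14350, while KAT1, FAMA, MYB60 and SLAC1 reached at most 702.6. Among the root markers PHT1;1 ranged from 2334 to 7838. In this comparison limma called PDF1, SLAC1 and SHR higher and PHT1;1 and PRX72 lower (24.8% of all loci called). Without replicate 3 limma called 34 members, 5 higher and 29 lower (44.1% of all loci), and without replicate 2 it called 0 (9.93%). Without aba2-1 mock replicate 1 it also called 0 (16.4%), without mock replicate 3 only PSAG (14.5%), and with the groups of the comparison alone 0 (2.74% of all loci).

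The counts of list genes called in aba2-1 at 50 nM stand against 12.7% of all loci called higher and 12.1% called lower. Of 13 Calvin cycle and Rubisco genes 6 fell and none rose, with a median of -0.44. RBCS1B held 5331.1, 4005.5 and 4641.9 in mock and 1199.3, 761.0 and 1800.6 at 50 nM, below mock in every library, also in replicate 3 (log2 difference -1.97, adjusted p 1.41e-05, limma). RCA, the Rubisco activase, fell by 0.66 (adjusted p 0.0167, limma). Of 15 chlorophyll synthesis genes 3 fell, among them CHLH (-0.58, adjusted p 0.00608, limma), and 2 rose, PORA and GUN4. Of 13 regulators 4 rose, led by PIF4 (0.98, adjusted p 7.02e-06, limma), and of 8 genes tested of the list for chlorophyll breakdown and senescence 3 rose (RCCR, NYC1 and ORE1). LHCA6, one of 12 other nuclear photosystem genes, fell by 0.72 (adjusted p 0.00628, limma). No plastid-encoded gene of 12 passed.

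Whether the difference at 50 nM ABA was the same in both genotypes was tested as an interaction. limma called 0 of 39 members, against 2.05% of all loci. Its unadjusted p was under 0.05 for 5 members and for 3805 of 21023 loci. edgeR called 0 and DESeq2 called 5, all with a higher difference in aba2-1 (4.67% of all loci). These 5 were PSBY, PSAG, PSAD1, PSAD2 and PSAF, with limma interactions of 0.96, 0.59, 0.70, 0.91 and 0.86 on the log2 scale and limma adjusted p of 0.0808, 0.107, 0.0867, 0.0919 and 0.128. Each was below mock in all 3 Col-0 libraries. Without aba2-1 50 nM ABA replicate 3 limma called the 5 as well (15.9% of all loci). Without replicate 2 it called none (1.87% of all loci), with interactions of 0.64, 0.40, 0.54, 0.645 and 0.48 for PSBY, PSAG, PSAD1, PSAD2 and PSAF and adjusted p of 0.135 to 0.198. The LHCB1 genes had interactions from -0.61 to -0.32 and the LHCB2 genes from 0.26 to 0.35, none of them called. These directions turned with single libraries. Without replicate 2 all 39 interactions were positive, the LHCB1 genes at 0.084 to 0.274, and without replicate 3 the interaction of 1 of the 3 LHCB2 genes was negative (-0.0371).

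**Figure D4:**
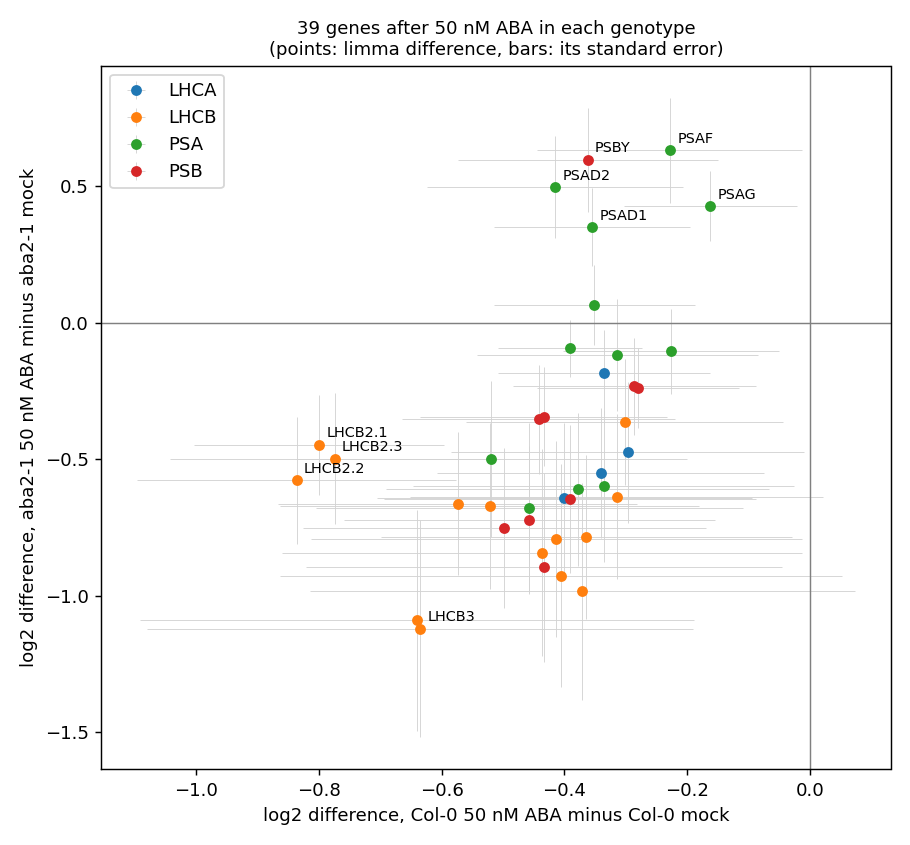
Log2 difference of each of the 39 genes at 50 nM ABA from mock in Col-0 (x axis) and in aba2-1 (y axis), coloured by family, with limma standard errors as grey bars. All points are left of 0, PSAD1, PSAD2, PSAE1, PSAF, PSAG and PSBY lie above 0 on the y axis, and the LHCB2 genes are farthest left.

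The CA lines were set against aba2-1 mock and against Col-0 mock, since their background is not given; the 4 comparisons with either group share its libraries. limma called 0 of 39 members in each of the 8. The shares of all loci called against aba2-1 mock were 2.48% for PYL4 CA, 0.157% for PYL5 CA, 0.119% for PYL6 CA and 1.15% for the line labelled PYR1 CA, and against Col-0 mock 1.44%, 1.59%, 0.157% and 2.81%. Members at an unadjusted limma p under 0.05 numbered 1, 5, 0 and 1 against aba2-1 mock and 3, 0, 0 and 1 against Col-0 mock. Of the 21023 loci, 2594, 3312, 896 and 2465 had such a p against aba2-1 mock. Against Col-0 mock 2522, 3575, 1503 and 2886 did. edgeR and DESeq2 called 0 members in all 8.

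In PYL4 CA and the line labelled PYR1 CA the members were slightly lower, and LHCB2.1 had the smallest p of the 39 against aba2-1 mock in both. Against aba2-1 mock, 16 members in PYL4 CA and 17 in the line labelled PYR1 CA lay below all mock libraries, against 12.4% and 13.2% of all loci, and none lay above. Against Col-0 mock, 29 and 30 lay below, against 22% and 24%. The medians were -0.11 and -0.15 against aba2-1 mock and -0.16 and -0.17 against Col-0 mock. LHCB2.1 held 21.6, 19.6 and 22.3 kreads in PYL4 CA (log2 difference from aba2-1 mock -0.41, SE 0.183, adjusted p 0.336, limma). It held 20.4, 19.4 and 21.1 in the line labelled PYR1 CA (-0.47, SE 0.183, adjusted p 0.248, limma). In both lines every library was below all 5 mock libraries.

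LHCB2.3 held 2.89, 2.91 and 2.94 kreads in PYL4 CA and 2.93, 2.83 and 2.93 in the line labelled PYR1 CA, below the 3.33 to 4.91 of the 5 mock libraries. LHCB2 took 4.74%, 4.24% and 4.82% of LHCB reads in PYL4 CA and 4.54%, 4.60% and 4.59% in the line labelled PYR1 CA, below the 5.115% to 6.002% of the 5 mock libraries. PSAD2 held 7.50, 8.34 and 9.05 kreads in PYL4 CA, below the 9.81 to 11.8 of mock (-0.37, adjusted p 0.439, limma). GLK2 fell in PYL4 CA against aba2-1 mock, 1 of 13 regulators called. PETE1, a plastocyanin gene, fell there as 1 of 11 electron transfer genes. In that comparison limma called 107 of 21023 loci lower. The 5 seed genes summed to 96, 33 and 595 normalised reads in the line labelled PYR1 CA and to at most 47 in the other libraries. The phloem markers summed to 1880 to 2110 in PYL4 CA and 1841 to 1973 in the line labelled PYR1 CA, below the 2222 to 2952 of the 5 mock libraries. The epidermis and guard cell markers, of which PDF1 ranged most over the series, summed to 13178 to 13991 in PYL4 CA. This was above aba2-1 mock (10787 to 13073) and overlapped Col-0 mock (12204 to 13313). The part of these levels in the result was not tested.

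PYL6 CA stayed near mock, with a median of 0.02 against aba2-1 mock and -0.02 against Col-0 mock. Against aba2-1 mock 3 members lay above (7.3% of all loci) and 3 below (8.5%), and against Col-0 mock 6 above (20%) and 8 below (19.2%). LHCB1.4 held 31.7, 31.5 and 31.6 kreads in PYL6 CA against 24.8, 28.3 and 26.4 in aba2-1 mock and 25.4 and 27.1 in Col-0 mock (0.26 and 0.27, adjusted p 1.00 and 0.987, limma). LHCB4.3 lay lower, at 210.1, 193.4 and 182.3 normalised reads against 248.1, 370.5 and 287.0 in aba2-1 mock (-0.61, SE 0.305, adjusted p 1.00, limma).

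Of the CA lines, PYL5 CA had the widest spread between replicates. Replicate 2 had 38 members above all aba2-1 mock libraries and 0 below, with a median of 0.44. Replicate 3 had 32 below and 7 above, with a median of -0.88, and replicate 1 had 27 below and 4 above, with a median of -0.28. The shares of all loci above and below were 35.6% and 34.6% in replicate 2 and 37.2% and 36.8% in replicate 3. In replicate 1 they were 28.1% and 27.9%. LHCB3 held 24.8, 53.1 and 12.5 kreads in replicates 1, 2 and 3, and the LHCB1 sum 529.9, 925.7 and 320.3 kreads. PSAF held 50.0, 60.3 and 68.3, and PSAG 40.2, 43.1 and 43.6, with PSAG above the 5 mock libraries in all 3. Against aba2-1 mock 4 members (PSAD1, PSAE1, PSAG and PSAH2) lay above in all 3 libraries, against 8.99% of all loci, and 0 below, against 7.91%. Against Col-0 mock 4 lay above (PSAD1, PSAF, PSAG and PSBY; 16.1%) and 0 below (15.1%).

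The direction of members in PYL5 CA replicate 3 was set beside that in aba2-1 50 nM ABA replicate 2. From PYL5 CA replicate 1 to replicate 3, PSAD1, PSAD2, PSAE1, PSAF, PSAG, PSAH2 and PSBY were higher and the other 32 lower. From aba2-1 50 nM ABA replicate 3 to replicate 2 the 5 genes named above were higher and 34 lower. Across the 39 members the 2 sets of differences had a Pearson r of 0.935 and a Spearman rho of 0.906, a description of 4 libraries picked after their values were seen, none of them in both differences. The same measure between Col-0 50 nM ABA replicates 3 and 2 gave 0.648 and 0.533 with the aba2-1 pair.

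Library properties moved with PYL5 CA as well, and their part in the result was not tested. Over 14938 loci with a mean of at least 100, the difference of replicate 2 from the mean of its group's other libraries had a Spearman correlation with transcript length of -0.631, and replicates 1 and 3 of 0.482 and 0.440; elsewhere it lay between -0.373 and 0.373. Members are shorter than most, with a median of 1203 bases against 1785. For aba2-1 50 nM ABA replicate 2 it was 0.136. The epidermis and guard cell markers, of which PDF1 ranged most over the series, summed to 13899, 11240 and 17133 in PYL5 CA replicates 1, 2 and 3. Without replicate 2 limma called 2 members lower against aba2-1 mock (1.19% of all loci) and 7 lower against Col-0 mock (5.41%). The median of the members against aba2-1 mock was -0.278, and it was -0.617 without replicate 2 and 0.087 without replicate 3.

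Among the CA lines the F test of limma called 0 of 39 members, against 3.36% of all loci. Its unadjusted p was under 0.05 for 4 members and for 3663 of 21023 loci. edgeR called 1 member (4.26% of all loci) and DESeq2 called 3 (8.74%). The smallest p were those of PSAH2 and PSAD2, with adjusted p of 0.0583 and 0.0668 (limma). PSAH2 held 8.32, 8.05 and 8.25 kreads in PYL4 CA, 10.11, 13.1 and 10.6 in PYL5 CA, 9.22, 9.54 and 9.66 in PYL6 CA and 8.86, 8.97 and 9.04 in the line labelled PYR1 CA. Its libraries did not overlap between PYL4 CA and PYL5 CA.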

How the data were processed

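RNA of 28 whole-seedling samples in 10 groups was sequenced (RNeasy extraction with DNase, KAPA stranded libraries, NextSeq 500, per the labels' protocols). Trimmomatic 0.38, Salmon 1.3.0, edgeR 3.28.0 and TAIR10 are named, without roles, in the submitters' processing notes. The authors deposited 1 table of 23686 rows whose values are a signal: read counts divided by 1 size factor per sample. At a tolerance of 0.01 reads, 100% of values came out as whole reads, and no row held under 10. Counts had been allowed for, but the values are normalised, so limma 3.58.1 (R 4.3.3; trend, robust) was run on log2(value + 1) for 21023 loci with at least 10 in at least 2 samples, in 1 fit over all samples with Benjamini-Hochberg adjustment at 0.05. Fold changes are therefore on the log2(value + 1) scale. Added alternatives on recovered reads were edgeR 4.0.16 and DESeq2 1.42.0; other scalings, filters, library weights, a replicate block and left-out libraries were also run. The fit was tested on simulated data. Named members were the highest of each family and, per comparison, the 3 smallest p and the extremes. Members and lists were chosen with earlier results of these data known. Replicates differed beyond counting noise. Python 3.11.15, pandas 2.3.3, NumPy 2.4.6, Biopython 1.88 and Matplotlib 3.10.9 made tables and figures; promoters came from the RefSeq TAIR10.1 genome.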

Additional observations from a re-analysis of the deposited data

Results flagged for a closer look

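PSAF and PSAG were below mock in every Col-0 library at 50 nM ABA and above mock in every aba2-1 library at that dose. The interaction on the log2 scale was 0.86 for PSAF and 0.59 for PSAG, with limma adjusted p of 0.128 and 0.107, so the difference between the genotypes did not pass the test over all loci. Without aba2-1 50 nM ABA replicate 2 the interactions were 0.48 and 0.40. Such opposite moves without overlap were found for 547 of 21023 loci, or 2.6%, and for 2 of the 39 members.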

How the results depend on the processing

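Counts below are of the 39 members called at an adjusted p under 0.05. The share of all loci called in the same fit follows in brackets. With the groups of the comparison alone, 8 were called for Col-0 10 nM ABA (2.28%), 14 for Col-0 50 nM (4.56%) and 0 for aba2-1 50 nM (2.74%). For PYL4 CA 2 were called against aba2-1 mock (4.38%) and 8 against Col-0 mock (9.16%). For the line labelled PYR1 CA 5 were called against Col-0 mock (7.73%), and in the F test 1 (2.77%). With weights per library the counts were 3 (1.76%), 30 (10.8%) and 37 (49.3%) for these ABA groups and 9 (26.6%) for the interaction. Against aba2-1 mock they were 4 (10.6%), 12 (5.65%) and 3 (9.77%) for PYL4 CA, PYL5 CA and the line labelled PYR1 CA. Against Col-0 mock they were 4 (13.7%), 18 (16.1%) and 5 (17.4%) for the same lines, and in the F test 11 (22.5%). DESeq2 called 2 for Col-0 50 nM (2.15%), 5 for the interaction (4.67%) and 3 in the F test (8.74%). In the F test edgeR called 1 (4.26%). With 4 libraries left out, chosen after seeing the data, the counts were 9 for Col-0 50 nM (3.5%) and 1 for aba2-1 50 nM (18.1%). The interaction gave 5 (4.1%), with a median of 0.25. Against aba2-1 mock the counts were 2 (6.14%) and 3 (4.83%) for PYL4 CA and the line labelled PYR1 CA. Against Col-0 mock they were 3 (6.01%), 1 (1.33%) and 2 (9.11%) for PYL4 CA, PYL5 CA and the line labelled PYR1 CA. The F test gave 1 (5.3%). Total scaling gave 0 for aba2-1 50 nM (1148 of 21023 loci). On nuclear rows, also chosen after seeing the data, it gave 7 there (23.5%) and 1 in the F test (3.55%). Total scaling moved the members' median to -0.541 for aba2-1 10 nM (all loci -0.49), and to -0.233, -0.087 and -0.242 for PYL4 CA, PYL6 CA and the line labelled PYR1 CA against Col-0 mock. The cause of these changes was not tested.

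Leaving out 1 library at a time gave 0 to 34 for aba2-1 50 nM (44.1% of all loci at the highest count). The interaction gave 0 to 5 (15.9% at the highest count). PYL5 CA gave 0 to 2 (1.19%) and 0 to 7 (5.41%) against aba2-1 and Col-0 mock, and the F test 0 to 2 (5.45%). The members' median then ranged from -0.25 to -0.138 for Col-0 10 nM, from -0.873 to -0.171 for aba2-1 50 nM, from -0.427 to 0.25 for the interaction, from -0.617 to 0.087 and -0.651 to 0.041 for PYL5 CA against aba2-1 and Col-0 mock, from -0.095 to 0.032 for aba2-1 mock, from -0.12 to 0.041 for aba2-1 10 nM, and from -0.202 to -0.086, -0.09 to 0.022 and -0.242 to -0.115 for PYL4 CA, PYL6 CA and the line labelled PYR1 CA against Col-0 mock.

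The replicate block called 3 members for aba2-1 50 nM, against 23.1% of all loci, and 0 elsewhere. LHCB3 was lost (adjusted p 0.0561, limma). Pairs of same-numbered samples with a correlation over 0.1 were 5 of 36, 13 of 45 and 14 of 36 for replicates 1, 2 and 3. The correlations ran from -0.402 to 0.198, from -0.421 to 0.457 and from -0.721 to 0.373. Whether same-numbered samples share more than a number cannot be told from these counts, since the 0.1 cut is arbitrary.

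Signs turned for uncalled members. PSAG in the line labelled PYR1 CA against Col-0 mock was -0.002 (TMM), -0.061 and -0.019 (total and nuclear scaling), -0.001 (edgeR) and -0.012 (weights), and -0.032 to 0.037 with 1 library left out. Against aba2-1 mock it was -0.003 (weights) and -0.021 to 0.1 with 1 library left out. PSAE1 in PYL4 CA against aba2-1 mock was -0.006 (total scaling), -0 (weights) and -0.01 to 0.037 with 1 library left out. LHCB1.5 in PYL4 CA against Col-0 mock was -0.041 (total scaling) and -0.033 to 0.102. LHCA2 in aba2-1 10 nM was -0.43 (total scaling) and -0.037 to 0.159. LHCB1.4 ranged from -0.075 to 0.023 in Col-0 10 nM with 1 library left out. Its interaction was 0.084 with the 4 libraries left out and -1.209 to 0.084 with 1 left out.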
